A study of Homo sapiens with 8 samples.

Results

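The peaks described here are those at and around 10 genes for proteins that myeloid cells store in granules and secrete, namely AZU1, PRTN3, ELANE, CFD, CTSG, MPO, RNASE2, RNASE3, LYZ and SRGN. A peak was taken when the list gave it the symbol of one of these genes, when it had no symbol and its centre lay within 50 kb of such a peak, or when it lay in a 50-kb window around AZU1, PRTN3, ELANE and CFD on chromosome 19 or a 30-kb window around MPO on chromosome 17. This gave 18 of the 15412 peaks in the list. Of the 18 peaks, 6 carried the symbol of one of the 10 genes, 11 had no symbol and 1 carried the symbol of a neighbouring gene, PLPPR3. PRTN3, LYZ, SRGN and RNASE3 gave their symbol to no peak.

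The peaks came from Cut&Run, in which an antibody directs a nuclease to the protein of interest in nuclei and the released DNA fragments are sequenced. The cells were U937-PR9, a single monocytic cell line that carries a transgene for the fusion protein PML::RARA under a promoter that zinc switches on. Induced cells received 100 μM ZnSO4 and uninduced cells received water, each for 5 h, and an anti-PML-RARA or an anti-RARA antibody was applied to 2 replicates of each, 8 libraries in all. Only the anti-PML-RARA peaks from induced cells were analysed here, so neither the uninduced cells nor the anti-RARA antibody can be set beside the values below. Zinc and PML::RARA were applied together in the induced cells, and the effects of the zinc and of the fusion protein cannot be told apart from this list. The paper describes the 2 Cut&Run replicates as biological, and whether they came from separate cultures is not stated in the labels. Each peak has a single value and none for each replicate. This leaves no measure of replicate spread and no test, and every count below is a description of this list. RNA was not measured in these libraries, and a peak says nothing about the level of the gene beside it.

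Primary (azurophil) granules are formed at the promyelocyte stage of neutrophil development, and they carry myeloperoxidase and a group of serine proteases. The promyelocyte is the cell that accumulates in acute promyelocytic leukaemia, where the PML::RARA fusion protein is made. AZU1, PRTN3, ELANE and CFD lie next to each other on chromosome 19 and encode related proteins of the chymotrypsin fold, of which azurocidin, the product of AZU1, has lost its protease activity. RNASE2 and RNASE3 encode the eosinophil-derived neurotoxin and the eosinophil cationic protein, a pair of closely related ribonucleases. The retinoic acid receptor, which PML::RARA contains, binds hexamers of the form AGGTCA, and the fusion protein accepts pairs of them at many spacings.

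The reference sequence within 100 bp of the apex, the point of the largest signal, is printed for the labelled peaks of 5 genes, to show the sequence at or beside their apexes. Coordinates are of hg19, each sequence reads 5′ to 3′ on the strand of its gene, and bases of untranslated exons were left out with those beyond them, which at CFD removed 118 bases with the apex itself. Capitals mark the words that were searched on both strands. The receptor hexamers were AGGTCA and AGTTCA, with GGGTCA and GGTTCA as their variants. For the ETS factors the word was GGAAGT, for C/EBP TTGCNNAA and for MYB AACTG. The RUNX words were TGTGGT and TGCGGT, and the GC box was GGGCGG. The stretches are chr17:56359068-56359268 (minus strand) upstream of MPO, chr19:827659-827836 (plus strand) upstream of AZU1, chr19:850581-850781 (plus strand) upstream of ELANE, chr14:25045498-25045698 (minus strand) at CTSG, and chr19:859581-859663 (plus strand) upstream of CFD.
MPO: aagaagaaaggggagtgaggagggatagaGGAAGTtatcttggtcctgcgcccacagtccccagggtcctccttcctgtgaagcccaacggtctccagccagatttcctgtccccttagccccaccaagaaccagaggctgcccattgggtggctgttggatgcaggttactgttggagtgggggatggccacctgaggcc
AZU1: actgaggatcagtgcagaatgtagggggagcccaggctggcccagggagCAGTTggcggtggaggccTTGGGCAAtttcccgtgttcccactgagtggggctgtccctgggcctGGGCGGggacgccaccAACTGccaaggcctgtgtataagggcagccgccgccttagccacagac
ELANE: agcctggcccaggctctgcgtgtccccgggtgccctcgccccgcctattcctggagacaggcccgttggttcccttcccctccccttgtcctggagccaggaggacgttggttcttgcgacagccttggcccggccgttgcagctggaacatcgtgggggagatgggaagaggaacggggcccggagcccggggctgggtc
CTSG: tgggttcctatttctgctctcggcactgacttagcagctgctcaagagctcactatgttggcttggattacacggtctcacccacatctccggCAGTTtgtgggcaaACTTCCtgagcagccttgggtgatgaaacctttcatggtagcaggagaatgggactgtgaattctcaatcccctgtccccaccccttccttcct
CFD: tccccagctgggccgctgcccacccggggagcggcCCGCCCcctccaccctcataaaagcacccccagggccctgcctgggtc

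The MPO stretch held 1 ETS word. The CTSG stretch held an ETS word and a MYB word on the strand opposite to the gene. In the AZU1 stretch there were a C/EBP word, a pair of MYB words and a GC box. The ELANE stretch held none of the words searched, and that of CFD held 1 GC box. The bases left out within 100 bp of the apex held 1 receptor hexamer at AZU1, and at CFD 1 receptor hexamer, 1 RUNX word and 1 MYB word. A match here is a run of letters and not a binding site.

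By the symbols in the list, 6 of the 10 genes gave their symbol to a peak, compared with 30.0% of the 20090 protein-coding genes of GENCODE. By position alone, 6 of the 10 genes had an apex within 1 kb of one of their start sites, compared with 39.3% of all coding genes. Both counts named the same genes: MPO, AZU1, ELANE, CTSG, CFD and RNASE2. RNASE2 entered them through different peaks. Its labelled peak had the apex 36088 bp from its start site, and the peak at that start site had no symbol. The canonical start site itself lay inside a peak at AZU1, CFD and CTSG, 3 of the 10 genes, compared with 35.5% of all coding genes. A peak lay within 10 kb of 8 of the 10 genes, all but SRGN and RNASE3, compared with 53.3% of all coding genes. The genes were chosen with earlier results of this list known, so these counts describe the genes and are not independent evidence that the group stands apart.

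**Figure D1:**
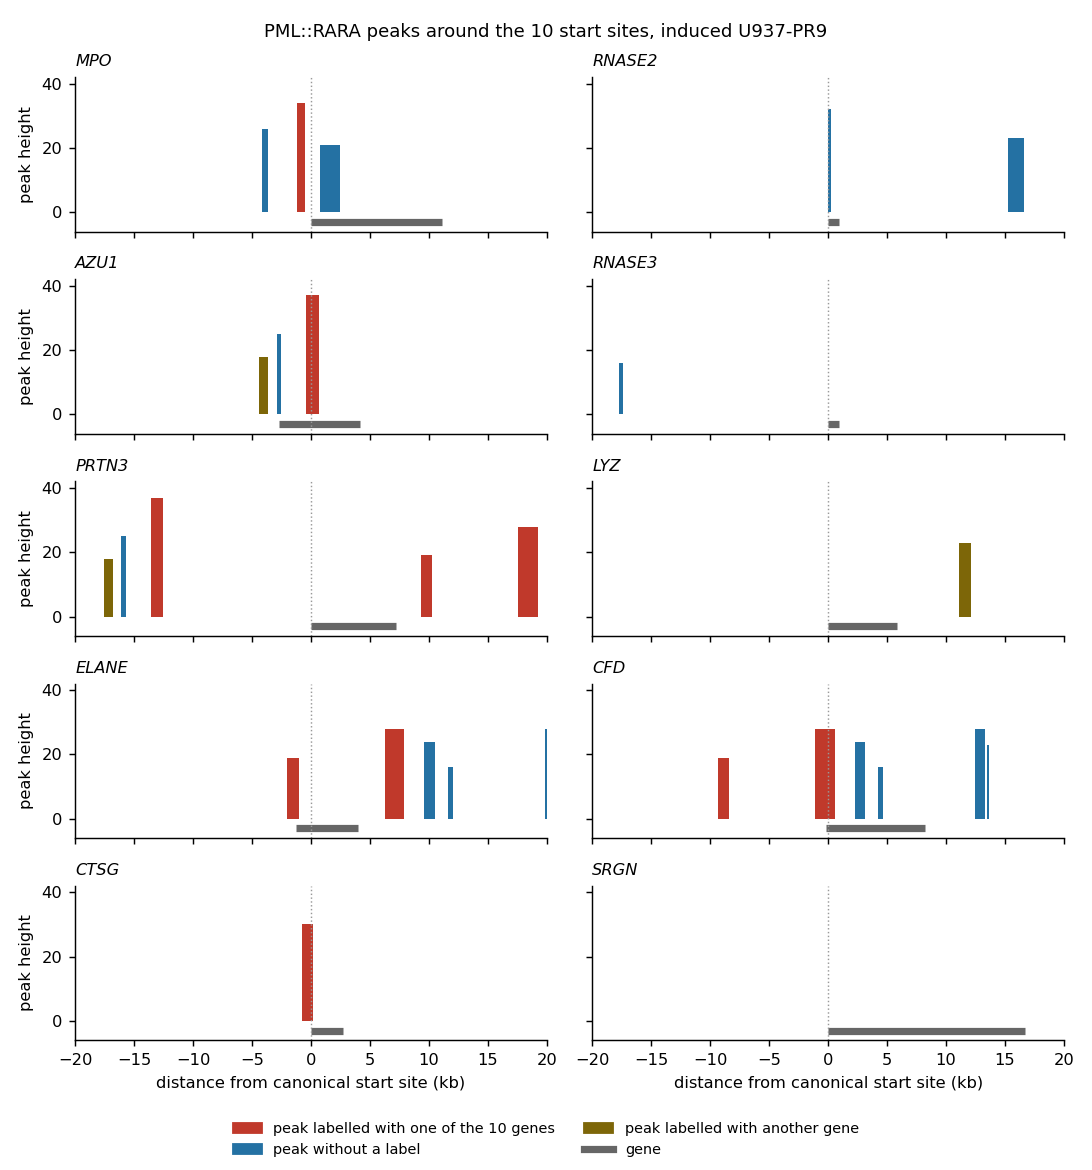
Each panel shows the peaks within 20 kb of the canonical start site of 1 gene, with the distance from the start site in kb on the horizontal axis (positive downstream), the peak height on the vertical axis, the width of a bar equal to that of the peak (at least 0.15 kb) and the gene as a grey bar. MPO, AZU1, CTSG, CFD and RNASE2 had an apex within 1 kb of the canonical start site, ELANE had its apex 1622 bp upstream, and at PRTN3, RNASE3, LYZ and SRGN the nearest apex was 9682 bp or farther away.

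The heights of the 18 peaks lay in the middle of the list. Their median height, the largest signal in a peak, was 24.5 (range 16 to 37), compared with 25 over all 15412 peaks (range 13 to 87). Their median width was 689.5 bp (range 195 to 1661 bp), compared with 829.5 bp over all peaks. The 6 peaks with the symbol of a granule gene had a median height of 29 and a median width of 948 bp, beside 26 and 1108 bp over all 7169 labelled peaks. The 11 peaks without a symbol had a median height of 24 and a median width of 556 bp, beside 23 and 634 bp over all 8243 unlabelled peaks. None of the 18 peaks was near the top of the list in height, since the highest of them, at AZU1, exceeded 81.7% of all peaks.

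**Figure D2:**
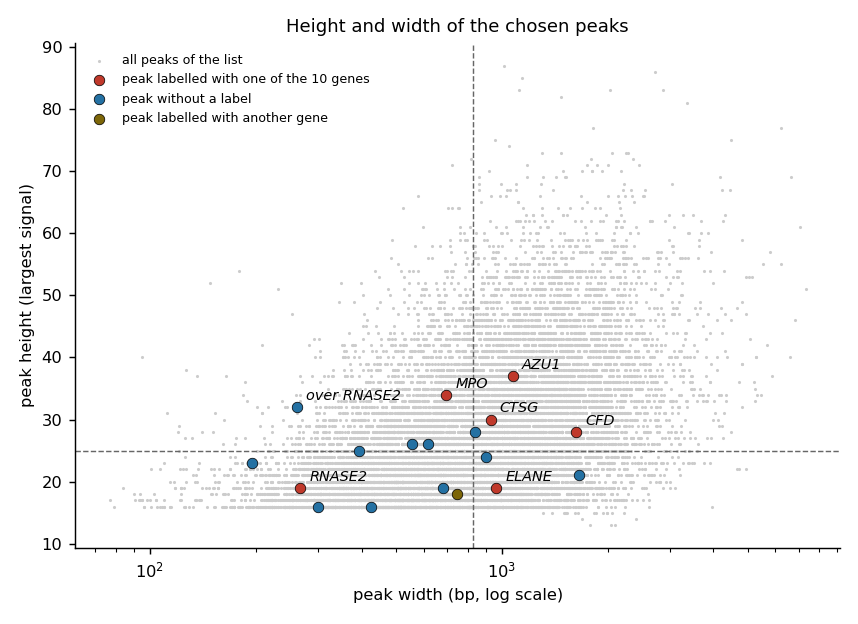
Peak width in bp (horizontal, log scale) is plotted against peak height (vertical) for all 15412 peaks in grey and the 18 peaks in colour. The 18 points lie within the grey cloud, between the heights of 16 and 37.

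AZU1 had the highest of the 18 peaks. AZU1 (ENSG00000172232, chr19:825097-832018, plus strand) encodes azurocidin, an antibacterial protein and attractant of monocytes. The labelled peak at chr19:827397-828471 reached a height of 37 over 1075 bp and a total signal of 9061, and its apex lay 78 bp upstream of the canonical start site. A narrower peak without a symbol, at chr19:824918-825311, was 25 high and 394 bp wide. Its apex lay 60 bp from an AZU1 start site annotated farther upstream and 2800 bp upstream of the canonical one. The third peak, at chr19:823446-824190, had a height of 18, carried the symbol of PLPPR3 and had its apex 1226 bp from an AZU1 start site and 1916 bp from that of PLPPR3, a gene on the opposite strand. AZU1 thus had a peak at both of its start regions, and the one at the canonical start site was the higher.

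ELANE (ENSG00000197561, chr19:851014-856247, plus strand) encodes neutrophil elastase. Its peak at chr19:850305-851270 had a height of 19, above 19.5% of the list, a width of 966 bp and a total signal of 5500. The apex lay 1622 bp upstream of the canonical start site and 333 bp from the nearest annotated ELANE start site, and the canonical start site was outside the peak. With this height ELANE and RNASE2 had the lowest of the 6 labelled peaks.

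CFD (ENSG00000197766, chr19:859453-867884, plus strand) encodes complement factor D, the protease of the alternative complement pathway that cleaves factor B. The labelled peak at chr19:858582-860211 was 28 high and 1630 bp wide, and its total signal of 12666 was the largest of the 18 peaks. The apex lay in the untranslated part of exon 1, 17 bp downstream of the canonical start site. A peak in intron 4, at chr19:861913-862814, was 24 high and 902 bp wide. A further peak at chr19:863901-864324 was 16 high and 424 bp wide, with its apex 4340 bp downstream of the start site. This apex lay within the annotated gene but outside the canonical transcript. Counting all annotated transcripts, CFD therefore carried 3 peaks over its own length, more than any other of the 10 genes. Beyond CFD, intron 11 of MED16, a subunit of the Mediator complex, held a peak of height 28 and width 840 bp and, 144 bp farther on, the narrowest of the 18 peaks, 23 high and 195 bp wide. In this narrowest peak, 22 of its 164 words of 32 bases occurred at more than 1 place in the genome (13.4%), and the part of such words in its signal was not tested.

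PRTN3 (ENSG00000196415, chr19:840999-848175, plus strand) encodes proteinase 3, and it lies between AZU1 and ELANE. It had no peak of its own, and the nearest, that labelled ELANE, lay 2130 bp beyond its end. The stretch without a peak between those of AZU1 and ELANE measured 21.8 kb and held the whole of PRTN3. The other gaps between neighbouring peaks from AZU1 to MED16 measured between 144 and 7804 bp, so the one over PRTN3 was the longest of the 8.

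**Figure D3:**
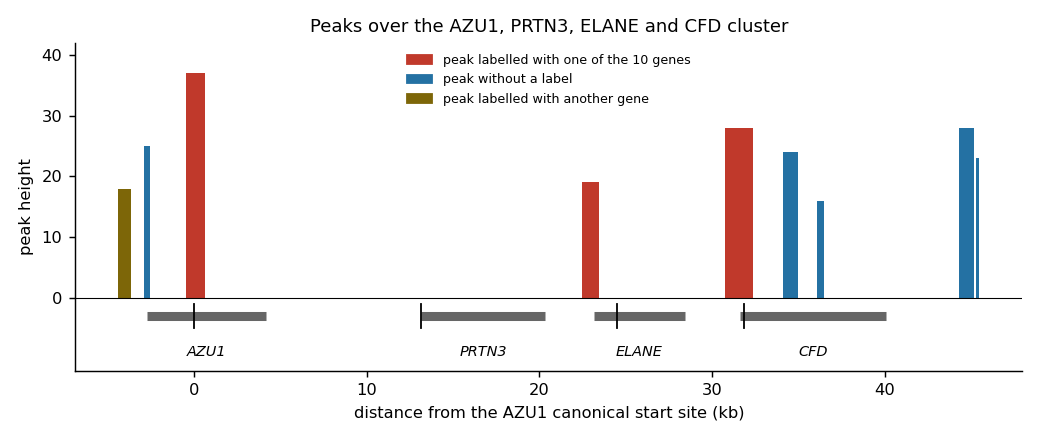
The peaks from PLPPR3 to MED16 on chromosome 19 are drawn to scale as bars, with the distance from the canonical AZU1 start site in kb on the horizontal axis, the peak height on the vertical axis and the genes beneath. The peaks stand at AZU1, ELANE and CFD, with a gap of 21.8 kb over PRTN3.

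In the 50-kb window around these 4 genes there were 7 peaks. Of 60739 windows of 50 kb that tile the genome, 50 held 7 or more peaks (0.0823%), as did 9 of the 1183 windows of chromosome 19 (0.761%). Among the 9326 windows with at least 1 peak the share was 0.536%. The window was set around the genes with the peaks known and does not start where the tiles do, so the shares are given only to show the density.

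CTSG (ENSG00000100448, chr14:25042724-25045456, minus strand) encodes cathepsin G, a serine protease of the same granule that lies in another cluster, beside the granzyme genes GZMH and GZMB and the mast cell chymase gene CMA1. Its peak at chr14:25045301-25046230 had a height of 30, above 66.2% of the list, a width of 930 bp and a total signal of 6777. The apex lay 142 bp upstream of the canonical start site, which was inside the peak. None of GZMH, GZMB and CMA1 had a labelled peak. A pair of unlabelled peaks stood inside GZMH, one with its apex in exon 4, 19 high and 683 bp wide, the other with its apex in intron 2, 26 high and 616 bp wide. Both apexes lay over 1 kb from any GZMH start site, at 2350 and 1823 bp. The peak in intron 2 was the only one of the 18 in which receptor hexamers stood as a direct repeat. At chr14:25077258-25077302 (minus strand) it held 4 hexamers in a row, in capitals here.
GZMH intron 2: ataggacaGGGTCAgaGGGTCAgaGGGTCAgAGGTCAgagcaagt
The repeat began 216 bp from the apex of this peak. A direct repeat with 0 to 13 bases between hexamers was found in 5.26% of all 15412 peaks when the whole peak was searched.

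MPO (ENSG00000005381, chr17:56347216-56358296, minus strand) encodes myeloperoxidase, which makes hypochlorous acid and is the main marker enzyme of the primary granule. It had 3 peaks, 1 labelled and 2 without a symbol. The labelled peak at chr17:56358776-56359471 had a height of 34, above 75.9% of the list, a width of 696 bp and a total signal of 8858. Its apex lay 872 bp upstream of the start site, which was outside the peak. Its mean signal per base, the total divided by the width, was 12.7, and 84.1% of all peaks had a lower mean. The peak farther upstream, at chr17:56361915-56362470, was 26 high and 556 bp wide, with its apex 3920 bp from the start site. The widest of the 18 peaks, at chr17:56355873-56357533, was 21 high and 1661 bp wide, and its apex lay in exon 6, 1833 bp downstream of the canonical start site and 65 bp from another annotated MPO start site. MPO thus had a tall, narrow peak upstream of the gene and a lower, wider one over its coding sequence. In the labelled peak 5 of 665 words of 32 bases occurred elsewhere in the genome (0.752%), and 1 of these had 295 copies.

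RNASE2 (ENSG00000169385, chr14:21423646-21424595, plus strand) was the only one of the 10 genes whose labelled peak had its apex over 1 kb from all of its own start sites. The labelled peak, at chr14:21387510-21387777, was 19 high and 268 bp wide, and its apex lay 36088 bp from the RNASE2 start site. It lay 38 bp from the start site of RNASE2CP, a transcribed pseudogene of the same family, in exon 1 of that gene. An unlabelled peak at chr14:21423656-21423917 stood at RNASE2 itself, with its apex in intron 1, 83 bp downstream of the start site. This peak had a height of 32, above 71.5% of the list, but a width of 262 bp, and only 3.32% of peaks were narrower. Its mean signal per base of 16.5 was above that of 95.6% of all peaks and was the highest of the 18. None of its 231 words of 32 bases occurred elsewhere in the genome, against 10 of 237 in the peak at RNASE2CP (4.22%). The peak without the RNASE2 symbol was therefore both nearer to the gene and higher than the peak that carried it.

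RNASE3 (ENSG00000169397, chr14:21359544-21360507, plus strand) lies in the same cluster and had no peak at its start site. The nearest peak, at chr14:21341833-21342133, was 16 high and 301 bp wide, and its apex lay 17487 bp upstream of RNASE3 and 50 bp from the start of a long non-coding RNA gene, ENSG00000259130. Only 0.13% of peaks in the list were lower, but many stood at this height or just above it. Below a height of 18 lay 13.7% of all peaks. Because RNASE2, RNASE2CP and RNASE3 are related copies, the 134 bases of intron 1 under the apex at RNASE2 (chr14:21423696-21423829) are shown beside the matching stretches of RNASE2CP (chr14:21387564-21387696) and RNASE3 (chr14:21359611-21359744), all on the plus strand, with the searched words in capitals.
RNASE2: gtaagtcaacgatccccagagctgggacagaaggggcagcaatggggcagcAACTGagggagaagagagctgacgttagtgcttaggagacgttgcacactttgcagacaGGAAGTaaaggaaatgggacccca
RNASE2CP: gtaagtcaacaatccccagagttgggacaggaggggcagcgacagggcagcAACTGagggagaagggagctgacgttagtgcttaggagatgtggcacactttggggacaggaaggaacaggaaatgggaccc
RNASE3: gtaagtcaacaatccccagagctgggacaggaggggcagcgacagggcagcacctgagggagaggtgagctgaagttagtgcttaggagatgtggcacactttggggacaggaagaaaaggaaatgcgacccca
The RNASE2CP stretch was identical to that of RNASE2 at 120 of 133 aligned positions (90.2%), and the RNASE3 stretch at 119 of 134 (88.8%). The ETS word stood in the RNASE2 stretch and in neither copy. The bases left out within 100 bp of the RNASE2 apex, untranslated or upstream of the start site, held 1 receptor hexamer and 1 more MYB word. That hexamer lay outside the called peak. The MYB word stood in RNASE2 and RNASE2CP, and the RNASE3 stretch held none of the words searched. The order of the heights was 32 at RNASE2 and 19 at RNASE2CP, with no peak at RNASE3. Any relation of the words to the heights was not tested. In their RefSeq promoters, described below, RNASE2 and RNASE3 did not differ in the searched words. Each held 1 receptor hexamer, 1 C/EBP word and 2 MYB words.

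LYZ (ENSG00000090382, chr12:69742161-69748014, plus strand) encodes lysozyme, which cleaves the bacterial cell wall and is stored in more than one type of granule. SRGN (ENSG00000122862, chr10:70847859-70864561, plus strand) encodes serglycin, the proteoglycan that holds proteases in the granule. Neither had a peak over the gene. The nearest peak to LYZ had a height of 23 and the symbol of YEATS4, and it lay 5216 bp beyond the end of the gene. The nearest to SRGN had a height of 36 and the symbol of VPS26A, and it lay 18475 bp from the gene. Together with PRTN3 and RNASE3, these were the 4 genes with no apex within 1 kb of a start site.

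Across the 18 peaks, the words were counted within 100 bp of the apex, the bases left out above included, beside the same count over the whole list. The ETS word stood within 100 bp of the apex in 6 of the 18 peaks, compared with 30.4% of all peaks, and these were the peaks at MPO, CTSG, RNASE2 intron 1, both GZMH positions and the narrower of the MED16 pair. A receptor hexamer stood in 7 of 18, compared with 35.7%, and a MYB word in 7 of 18, compared with 31.8%. At the RNASE2-labelled peak and at that in RNASE2 intron 1, the hexamer lay within 100 bp of the apex but outside the called peak. The C/EBP word was found in 3 of 18 peaks, compared with 9.64% of all. RUNX words were found in 3 of 18, compared with 26.0%, and the GC box in 5 of 18, compared with 38.6%. No direct repeat of hexamers stood within 100 bp of an apex in the 18 peaks, compared with 1.21% of all peaks, and 0 of 18 allows a share of up to 17.6% (Wilson 95% interval, counting of peaks only). Within 100 bp, the share in all peaks lay inside the Wilson 95% interval of the share in the 18 for each of these words. Within 200 bp of the apex, a window taken for this word after the data were seen, a MYB word stood in 14 of the 18 peaks (77.8%, Wilson 95% interval 54.8 to 91.0%), compared with 51.5% of all peaks, which was outside the interval. Of 28 such shares, for 7 words in 4 windows, the interval left out the share of all peaks in 2. The other was the direct repeat within 100 bp of the peak centre, found in 1 of 18 peaks (interval 0.988 to 25.8%) and in 0.973% of all. The intervals take the 18 peaks as independent, though some are close neighbours and the peaks at RNASE2 and RNASE2CP are related copies. They are given as a description and not as a test.

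The CpG content at the apexes of the 6 labelled peaks was low beside that of other labelled peaks. These apexes were not all at a canonical start site. The distance from it was 872 bp at MPO, 1622 bp at ELANE and 36088 bp at RNASE2. The CpG ratio, the number of CpG dinucleotides over that given by the C and G content, was 0.12 at MPO, 0.22 at CTSG, 0.29 at the RNASE2-labelled peak, 0.35 at CFD, 0.37 at AZU1 and 0.54 at ELANE, each within 100 bp of the apex. All of these lay below the lower quartile of 0.636 of the 7169 labelled peaks, whose median was 0.816. The share of labelled peaks with a lower ratio was 1.86% for MPO, 5.18% for CTSG, 8.06% for RNASE2, 10.7% for CFD, 11.3% for AZU1 and 18.7% for ELANE. The median of the 6 peaks, 0.32, was close to the 0.270 of the 8243 peaks without a symbol. The GC content was low in only some of them, since CFD at 71.6%, ELANE at 69.2% and AZU1 at 66.2% were above the median of labelled peaks of 64.7%, while MPO at 58.7%, RNASE2 at 53.7% and CTSG at 52.2% were below it. The 3 peaks below it in GC content were also the 3 with the lowest CpG ratios. Among the unlabelled peaks the ratio reached 0.79 in exon 6 of MPO and 1.00 downstream of the CFD start site.

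**Figure D4:**
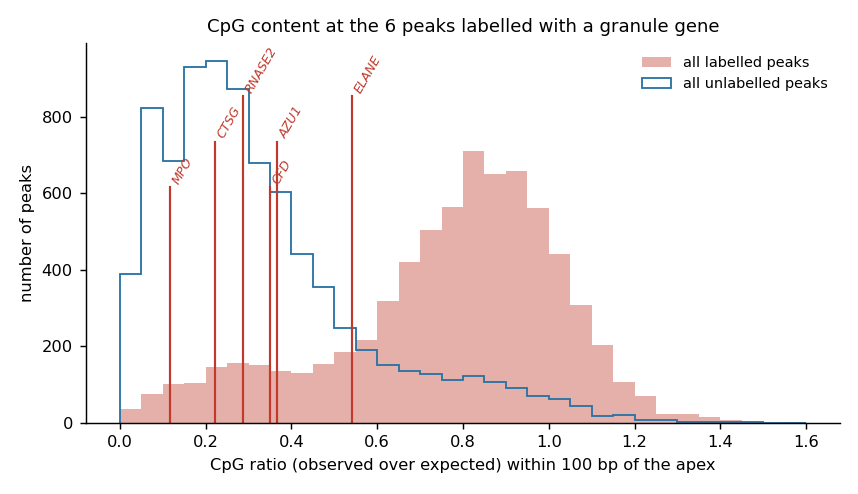
The horizontal axis is the CpG ratio within 100 bp of the apex and the vertical axis the number of peaks, for all 7169 labelled peaks (filled) and all 8243 unlabelled peaks (line). The vertical lines, whose lengths carry no value, mark the 6 peaks with a granule gene symbol, which lie between 0.12 and 0.54 and below most labelled peaks.

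The RefSeq promoters, from 250 bases before to 50 after the start site (GRCh38.p14), were given for 6 of the 10 genes: AZU1, PRTN3, CFD, CTSG, RNASE2 and RNASE3. All 6 lay below the middle of all promoters in CpG ratio, in genes with and without a peak at the start site. Of the 27305 promoters, 15.2% had a lower ratio than CTSG, 16.1% than RNASE2, 29.6% than RNASE3, 30.6% than PRTN3, 30.9% than AZU1 and 38.3% than CFD. PRTN3 and RNASE3, which had no peak, thus stood among the others in this respect. A receptor hexamer stood in 4 of the 6 promoters, those of AZU1, CFD, RNASE2 and RNASE3, compared with 38.7% of all promoters. A MYB word stood in 4, those of AZU1, CTSG, RNASE2 and RNASE3, compared with 39.9%, and a GC box in 3, those of AZU1, PRTN3 and CFD, compared with 44.6%. The C/EBP word stood in 4 of the 6 promoters, those of AZU1, PRTN3, RNASE2 and RNASE3, compared with 10.6% of all promoters. The ETS word stood in those of CTSG and PRTN3, compared with 23.2% of all. No RUNX word was found in any of the 6, compared with 19.4% of all. The promoters of RNASE2 and RNASE3 were identical at 242 of 283 aligned positions (85.5%), so they are not separate examples of a word that they share.

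Of 19 other genes for contents of the primary granule or their processing, 12 gave their symbol to a peak, in 14 peaks with a median height of 22. The highest was at NEU1, a lysosomal sialidase, with a height of 69, followed by BPI, the bactericidal permeability-increasing protein, with 40 and CTSC with 27. The CpG ratio of these 14 peaks ranged from 0.30 to 1.24 with a median of 0.83. BPI, which like MPO is made mainly in promyelocytes, gave the lowest of these ratios. CTSC, which encodes the protease that activates ELANE, PRTN3 and CTSG, had a ratio of 0.77 at its highest labelled peak. The defensin genes DEFA1, DEFA3 and DEFA4 had no label, and neither did PRSS57, CTSB, MAN2B1 or AGA.

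Of 20 genes for proteins of the specific and gelatinase granules, which are formed later than the primary granules, 2 gave their symbol to a peak. These were CAMP, which encodes the cathelicidin precursor, with a height of 33, and MMP9, which encodes gelatinase B, with a height of 19. Their CpG ratios were 0.064 at CAMP, below all 6 labelled peaks of the granule genes, and 0.17 at MMP9. Of 7 inhibitors of the serine proteases, SERPINB1, which inhibits elastase, cathepsin G and proteinase 3, was the only gene with a labelled peak, of height 29. Of 11 other genes of the RNase A family, RNASE4 alone had one, 25 high and 3414 bp wide. None of the 4 eosinophil granule genes EPX, PRG2, PRG3 and CLC had a label. The share of genes with a label was 63.2% for the primary granule list and 10.0% for the specific and gelatinase list, beside the 30.0% of all coding genes given above. By position, 12 of 19 and 3 of 20 genes had an apex within 1 kb of a start site, beside 39.3% of all coding genes. A peak lay within 10 kb of 14 of 19 and 7 of 20, beside 53.3% of all. These lists were chosen with earlier results of the data known, many of the lysosomal enzymes in the first list are made in nearly every cell type, and the difference was not tested.

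**Figure D5:**
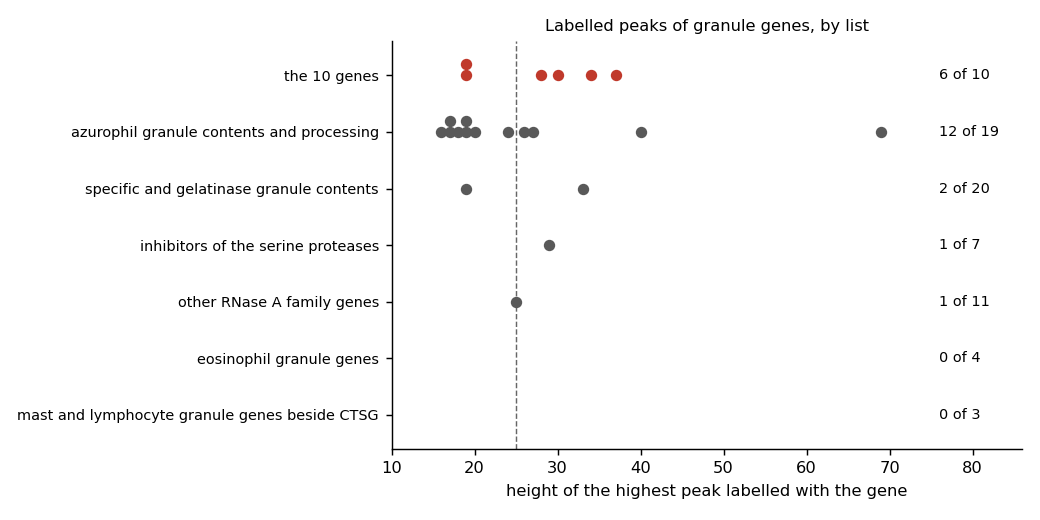
Each point is 1 gene, placed on the horizontal axis by the height of its highest labelled peak, in rows for the 10 genes and the 6 lists, with points of equal height stacked, the dashed line at the median height of all peaks (25) and the numbers of labelled and listed genes at the right. The 6 of the 10 genes with a labelled peak lie between 19 and 37, the other 4 have no point, and the specific and gelatinase row holds 2 points of 20 genes.

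The rule set its limit for unlabelled peaks at 50 kb between peak centres. The most distant peak inside was that of height 16 upstream of RNASE3, at 45.7 kb, and the nearest outside lay 52.0 kb from the RNASE2-labelled peak, 23 high and 1321 bp wide at chr14:21438935-21440255. Measured from RNASE2 itself, the peak outside was the nearer, since its apex lay 16.2 kb downstream of the start site.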

How the data were processed

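According to the methods and the labels, reads were trimmed (Trimmomatic) and mapped to hg19 (Bowtie2), duplicates (Samtools) and blacklisted regions (Bedtools) were discarded, and SEACR called the peaks over a paired control in its norm union mode. Peaks that passed an IDR below 0.05 between the 2 replicates were kept. Versions are not given in the sources used here. The authors deposited a whole-number total signal for each peak and a score, which is its largest signal and is called height here. Neither column name says this, and it was inferred from the numbers, since the total was below height times width in all 15412 peaks. Whether the signal is of 1 replicate, a mean or pooled reads is not stated, and the depth per library is unknown. A symbol was given by the authors to peaks with the apex in a promoter of a UCSC known gene.

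The apex was the midpoint of the interval of largest signal, or its start in the 34 peaks that lack the end. Genes and start sites were taken from GENCODE release 44 on GRCh37 (20090 protein-coding genes), with the Ensembl canonical transcript where 1 start site was used. Words were searched on both strands with a search tested on simulated data, and a word may overlap another. Words of 32 bases were counted over the whole genome on both strands. The promoters are those of RefSeq, and ELANE, LYZ, MPO and SRGN had no entry. The members, gene lists and words were chosen with earlier results of these data known. The genes named are the 10 genes, those that label a chosen peak or lie nearest to one, and those of the lists, of which 1 gene is not reported here. Hosts of a peak within an intron or exon, and the neighbours of LYZ and SRGN, mark only a place. No test was made, for want of values per replicate. Intervals cover the counting of peaks only and take the peaks as independent. The alternatives were other distances, the upper part of the list in height or in width, merged neighbours, the peak centre in place of the apex and other windows. The software was Python 3.11.15, numpy 2.4.6, pandas 2.3.3, scipy 1.17.1, pysam 0.24.0 and matplotlib 3.10.9.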

Additional observations from a re-analysis of the deposited data

How the results depend on the processing

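Of 35 alternatives to 8 results, 28 left the value within 1.5 times the count or within the interval of the median, and 7 did not. The number of peaks chosen went from 18 to 28 with unlabelled peaks within 100 kb, to 8 when lower than median peaks were dropped and to 7 when those narrower than the median were dropped. In the last case the median width went from 689.5 to 966 bp, which follows from the filter. With the peak centre in place of the apex, 3 peaks in place of 6 held an ETS word. A direct repeat of receptor hexamers was found in 1 peak, that in GZMH intron 2, with the whole peak searched, and in 1 peak around the peak centre, in place of 0. The other words were counted in the same further windows after the data were seen, outside the 35 alternatives, and none stayed within 1.5 times its count in all windows. The MYB word went from 7 peaks within 100 bp to 14 within 200 bp. The C/EBP word went from 3 to 5 within 200 bp and to 1 around the peak centre. RUNX words went from 3 to 6 within 200 bp. In the whole peak, receptor hexamers went from 7 to 13 and the GC box from 5 to 8. With canonical start sites only, an alternative chosen after seeing the data, 5 genes in place of 6 had an apex within 1 kb, ELANE being the gene lost. The number of genes with a promoter label went from 6 to 4 under either filter on height or width. No paired analysis was possible because each peak has 1 value and none for each replicate, which also meant that neither replicate could be left out. A gene without a peak here had no signal that passed the authors' threshold in both replicates, at a depth that is unknown. How far the heights, widths and number of the peaks depend on depth could not be examined.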
